A study of Homo sapiens with 9 samples.

Results

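The 92 genes described here encode the nuclear part of the mitochondrial respiratory chain and ATP synthase in BEAS-2B, an immortalized human bronchial epithelial cell line. They were chosen by name: protein-coding genes with symbols starting NDUFA, NDUFB, NDUFC, NDUFS or NDUFV for complex I, SDHA to SDHD for complex II, UQCR or CYC1 for complex III, COX4 to COX8 with a further letter or digit for complex IV and ATP5 for complex V, plus COA3. Of 63187 genes counted, 100 matched, and 92 of these had at least 10 counts in at least 3 of 9 libraries. The rule reads symbols and counts, and COA3, which the other prefixes do not cover, was added by name. Because the rule works on names, 8 complex I assembly factors, NDUFAF1 to NDUFAF8, are among the members and are counted apart from the 39 complex I subunits. The others are 4 subunits of complex II, 10 of complex III, 12 of complex IV, 17 of complex V, the ATP synthase inhibitor ATP5IF1, and COA3. NDUFA4 carries a complex I name but is found in complex IV, and it stays under its name here. Its paralog NDUFA4L2 does so too, and both are counted among the 39.

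Cells were left untreated (control), or exposed for 24 h to aerosol condensate at 2% (v/v). The PG/VG condensate came from carrier liquid alone, propylene glycol and vegetable glycerin, and the EC condensate from Virginia tobacco flavored liquid with 18 mg/mL nicotine. Each condition has 3 libraries of polyA-selected RNA, numbered 2, 3 and 4, and the labels give that number as the batch, so each batch holds 1 library of every condition. Nothing in the labels says what a batch shared. All groups are the same cell line in medium with serum, so the model holds no mucus, cilia or other cell types, and flavor and nicotine were applied together and cannot be told apart.

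The respiratory chain passes electrons from NADH (complex I) and succinate (complex II) through ubiquinone to complex III, cytochrome c and complex IV, where oxygen is reduced. Complexes I, III and IV pump protons, and complex V, the ATP synthase, uses the gradient to make ATP. Mitochondrial DNA encodes a few core subunits of complexes I, III, IV and V, while the nuclear genes supply the rest and all of complex II.

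Nuclear respiratory factor 1 (NRF1) and GABP, a factor of the ETS family, are known to bind promoters of many respiratory chain genes. Promoter letters are shown for 3 members as examples, and binding was not measured. RefSeq promoters (250 bases before to 50 after the start, build GRCh38.p14) were matched by symbol for 75 of the 92 members. The NRF1 letters (GCGC, then any base, then TGCGC), searched on both strands, occurred in 17 of the 75 (22.7%) and in 8.58% of 15843 protein-coding promoters. Unlike the members, those 15843 were not filtered by expression. The ETS letters CCGGAAGT, which do not overlap the NRF1 letters, occurred in 10 (13.3%) and in 6.19% of all. Either occurred in 25 members (33.3%, all promoters 13.9%). The share was 6 of 7 in complex III, 2 of 3 in complex II and 6 of 13 in complex V. It was 8 of 32 in complex I, 2 of 11 in complex IV and 1 of 7 among complex I assembly factors. ATP5IF1 and COA3 had neither. The 150 bases before the start follow for UQCR11, which had the largest called decrease, for SDHB, a called gene without either motif, and for COA3. Capitals mark motif matches. The windows lie at chr19:1605463-1605612, chr1:17054033-17054182 and chr17:42798705-42798854, all on the minus strand.
UQCR11: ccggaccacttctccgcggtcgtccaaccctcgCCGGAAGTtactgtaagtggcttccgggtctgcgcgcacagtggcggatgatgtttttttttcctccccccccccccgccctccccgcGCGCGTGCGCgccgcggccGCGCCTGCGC
SDHB: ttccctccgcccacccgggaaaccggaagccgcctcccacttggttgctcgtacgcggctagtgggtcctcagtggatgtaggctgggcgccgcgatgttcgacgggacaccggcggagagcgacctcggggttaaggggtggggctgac
COA3: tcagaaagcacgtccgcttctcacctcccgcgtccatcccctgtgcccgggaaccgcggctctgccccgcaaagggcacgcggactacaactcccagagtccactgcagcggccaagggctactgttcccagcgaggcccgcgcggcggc
UQCR11 held 2 NRF1 matches and 1 ETS match, and the SDHD promoter held 1 of each. No match in SDHB or COA3 says only that these letters are not in the window. Members with either motif (n = 25) had a median log2 fold change of −0.17 in PG/VG vs. control and −0.10 in EC vs. control, and the 50 without had −0.19 and −0.09.

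Each library held 16168260 to 24917838 counts on genes, with the 3 control libraries the smallest. Levels are given as CPM, counts scaled to one common library size after TMM. Scaling factors (TMM) were between 0.97 and 1.05. The keratins KRT8, KRT18 and KRT7 were abundant in every library, whereas EPCAM had 11 to 47 counts and CDH1 3 to 31. Of the leukocyte markers PTPRC, CD3E, CD68 and LYZ none had over 7 counts, and CD3E was at 0 throughout. Endothelial markers summed to 4.40 to 9.68 CPM. Fibroblast markers summed to 51.9 to 108 CPM, nearly all from COL1A1, with DCN at 0 to 2 counts. Batch 4 stood apart from batches 2 and 3 (40.6% of 16030 genes tested differed). Results on the members are therefore given within batches or without batch 4 where that changes them.

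Divided by transcript length, the levels of the members ran from 0.327 for COX6B2 to 451. On the scale of mean CPM per kb of the canonical transcript, ATP5F1B, the catalytic beta subunit of ATP synthase, was highest. COX4I1, a regulatory subunit of complex IV, stood at 358, NDUFS5 of the complex I membrane arm at 255, and UQCRH, the hinge protein of complex III, at 228. SDHB, the iron-sulfur subunit, led complex II at 77.6, and the 4 SDH genes followed in the order SDHB, SDHC (62.8), SDHD (44.4) and SDHA (19.0). With the length of all annotated exons in place of the canonical transcript, SDHC led complex II, CYC1 complex III and COX8A complex IV, so the order within those complexes depends on the length used. Medians per kb were 47.4 in complex I, 53.6 in II, 53.8 in III, 95.3 in IV and 78.8 in V.

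Several low members overlap other genes, and the authors did not count reads that fell on 2 genes. Overlap was taken on either strand here, as the strand setting of the authors' count is not given. NDUFV2, a core subunit of the NADH-oxidizing arm, was at 6 to 15 counts. Exons of another annotated gene cover 90.0% of its canonical transcript. NDUFA7 had 2 to 12 counts with 77.9% overlap, and NDUFA13 36 to 68 counts with 83.9%. NDUFB8 (72.0%), SDHA (69.4%), NDUFA11 (68.2%) and ATP5PO (63.8%) also overlap over most of their length but stood at 17.7, 19.0, 30.9 and 41.8 CPM per kb. The part of overlap in these levels was not tested. Of the 92 members 52 have an annotated pseudogene of any type, and reads that align to both as well were dropped as multi-mapping. In PG/VG vs. control the median log2 fold change was −0.18 for these 52 and −0.17 for the other 40, and −0.19 for 37 members with any overlap on the canonical transcript and −0.16 for 55 without.

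**Figure D1:**
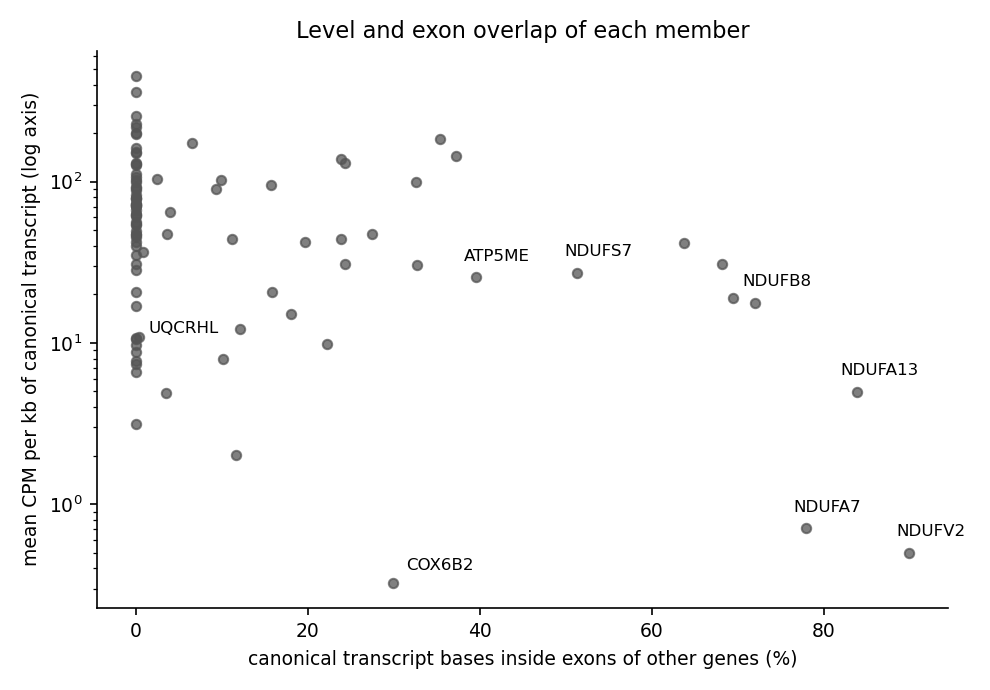
Mean CPM per kb of canonical transcript (log axis, mean of 9 libraries) against the percent of the canonical transcript inside exons of other genes, 1 point per member. NDUFV2, NDUFA7 and NDUFA13, with overlaps of 77.9% to 90.0%, lie at 0.501 to 4.98 CPM per kb, and COX6B2 is the lowest of all at 0.327.

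The tissue-restricted paralogs were low or absent. COX4I2, COX6A2 and COX7B2, the alternative forms of COX4I1, COX6A1 and COX7B, had 0 counts in all 9 libraries, where 0 counts allow up to 3 counts or 0.186 CPM in the smallest library, for counting error only. COX7A1 and COX8C reached 3 counts at most, as did the readthrough gene ATP5MF-PTCD1, and ATP5MGL and NDUFC2-KCTD14 reached 1. These 8 genes were under the count minimum. COX6B2 passed it with 7 to 18 counts, against 1049 to 1771 for COX6B1. The retrocopy UQCRHL had 43 to 76 counts and its parent UQCRH 1729 to 3434. The 3 genes of the rotor ring, which encode the same mature c subunit, stood at 198 (ATP5MC2), 106 (ATP5MC1) and 47.4 (ATP5MC3) CPM per kb.

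PG/VG vs. control addresses whether the carrier aerosol alone moved these genes. In the blocked edgeR quasi-likelihood test 8 of 92 members were downregulated and 0 upregulated at an adjusted p under 0.05 (8.70%). Over all 16030 genes tested 1.9% were called lower, 2.63% higher and 4.54% either way. The 8 were SDHB and SDHD of complex II, UQCR11 of complex III, COX6A1 of complex IV, ATP5F1D, ATP5PB and ATP5MG of complex V, and the complex I assembly factor NDUFAF3. None of the 39 complex I subunits was called, and 11 of them had an unadjusted p under 0.05 in edgeR. Across all members 43 had an unadjusted p under 0.05, each lower (46.7%, all genes 20.1% either way and 9.21% lower). The calls rest on single libraries, and the share of all genes called lower moved with them from 1.9%. Without PG/VG replicate 2 the count was 0 (all genes 0.391% lower), and without control replicate 4 it was 1 (1.04%). It was 2 without control replicate 3 (all genes 0.757% lower) and 3 without PG/VG replicate 4 (1.1%). Without the 3 libraries of batch 4 it was 1 (all genes 1.0% lower). It rose to 14 without PG/VG replicate 3 (all genes 1.74% lower) and to 22 without EC replicate 2 (3.52%). With no batch term it was 0, and 1 of all genes was called. COL1A1, the one abundant fibroblast marker, was higher in PG/VG (0.26, edgeR adjusted p = 0.0394), and its part in these values was not tested. In bulk RNA, less RNA per cell and fewer cells carrying it cannot be told apart.

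SDHB and SDHD of complex II, which oxidizes succinate, fell by 18.7% and 18.8%. SDHB (ENSG00000117118, chr1:17018664-17054032, minus strand, GRCh38) stood at 85.4, 81.9 and 95.3 CPM in controls of batches 2, 3 and 4, at 65.3, 66.4 and 82.4 in PG/VG, and at 82.1, 68.9 and 80.8 in EC. It was lower in PG/VG within each batch, while the highest PG/VG library slightly exceeded the lowest control. The log2 fold change was −0.30 ± 0.077 (SE, edgeR adjusted p = 0.0264, n = 3 per group). SDHD (ENSG00000204370, chr11:112086824-112120016, plus strand), a membrane anchor at the heme and ubiquinone sites, stood at 68.1, 60.1 and 67.4 CPM in controls, 50.1, 53.3 and 55.3 in PG/VG, and 64.5, 54.9 and 60.8 in EC. Its control and PG/VG groups did not overlap, as was the case with a lower PG/VG group for 26 of 92 members and for 6.37% of all genes. The log2 fold change of SDHD was −0.30 ± 0.078 (edgeR adjusted p = 0.0274), with 23.8% of its canonical transcript in an overlapping gene. SDHA, the flavoprotein, had −0.22 (adjusted p = 0.103) and SDHC, the other anchor, −0.12 (0.476), and neither was called.

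UQCR11 (ENSG00000127540, chr19:1597169-1605473, minus strand), a small subunit of complex III, had the largest called difference. Its controls were at 23.6, 23.2 and 21.2 CPM, its PG/VG libraries at 14.4, 17.6 and 18.9, and its EC libraries at 19.99, 18.3 and 18.8. Every control lay above every exposed library. The log2 fold change in PG/VG vs. control was −0.42 ± 0.108 (edgeR adjusted p = 0.0245), a fall of 25.4%, and within batches 2, 3 and 4 it was −0.69, −0.39 and −0.16. The other 9 complex III members were also below 0 (all genes 47.1%). UQCR10, UQCRB, UQCRC1 and UQCRFS1 had a PG/VG group entirely below control (all genes 6.37%). UQCRFS1, the Rieske iron-sulfur protein, had −0.24 (adjusted p = 0.0862), and CYC1, cytochrome c1, −0.13 (0.365).

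COX6A1 (ENSG00000111775, chr12:120438090-120440737, plus strand), the broadly expressed form of a regulatory complex IV subunit, was at 60.8, 57.8 and 60.9 CPM in controls and at 44.5, 52.3 and 44.7 in PG/VG, with EC at 60.3, 46.3 and 52.0. Control and PG/VG did not overlap, and EC reached into the control range in batch 2. The log2 fold change in PG/VG was −0.34 ± 0.092 (edgeR adjusted p = 0.0334). COX6A1 has 7 annotated pseudogenes and 32.6% of its canonical transcript overlaps another gene. The other 11 complex IV subunits were below 0 as well (all genes 47.1%). Of the 12, 8 had an unadjusted p under 0.05 in edgeR, each lower (all genes 9.21% lower). COX5B and COX5A came closest to the threshold with −0.27 for each (adjusted p = 0.0572 and 0.0708). COX7A2 was nearest to 0, at −0.02 ± 0.084.

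COA3 (ENSG00000183978, chr17:42795147-42798704, minus strand), which encodes an assembly factor that stabilizes newly made COX1, stood at 35.6, 37.8 and 43.3 CPM in controls, 31.2, 32.1 and 36.7 in PG/VG, and 40.6, 33.5 and 38.2 in EC. PG/VG was below control in every batch, by 0.19, 0.24 and 0.24 on the log2 scale, while EC was above its control in batch 2 and below it in batches 3 and 4. The control and PG/VG ranges overlapped across batches. COA3 had a log2 fold change of −0.23 ± 0.089 in PG/VG vs. control, which did not pass (edgeR adjusted p = 0.146). With ComBat-Seq adjusted counts and DESeq2 it passed (adjusted p = 0.0437), the only setting tried under which it did. The study names these steps for its own test and reports COA3 slightly downregulated in PG/VG and not differentially expressed in EC. In edgeR COA3 had −0.05 ± 0.088 (0.751) in EC vs. control and 0.17 ± 0.087 (0.412) in EC vs. PG/VG. The exons of COA3 overlap WNK4 over 42.3% of their length but its canonical transcript does not.

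In complex V the called genes belong to separate parts of the enzyme. ATP5F1D (ENSG00000099624, chr19:1241746-1244825, plus strand), the delta subunit of the F1 central stalk, was at 49.3, 56.5 and 49.8 CPM in controls, 39.6, 44.7 and 37.8 in PG/VG, and 47.8, 39.5 and 39.7 in EC. Both exposed groups lay below all controls. ATP5F1D had −0.35 ± 0.088 in PG/VG vs. control (edgeR adjusted p = 0.0225) and −0.29 ± 0.088 in EC vs. control (0.0305). ATP5PB (ENSG00000116459, chr1:111448864-111462773, plus strand), the b subunit of the peripheral stalk, was at 195, 177 and 217 CPM in controls, 153, 150 and 183 in PG/VG, and 178, 150 and 178 in EC. It was lower in both exposures within every batch although the ranges overlapped across batches. ATP5PB had −0.28 ± 0.069 in PG/VG (0.0201) and −0.22 ± 0.069 in EC (0.0366). ATP5MG (ENSG00000167283, chr11:118401346-118433278, plus strand), the membrane subunit g, was at 35.6, 33.4 and 45.1 CPM in controls, 26.01, 28.1 and 36.1 in PG/VG, and 38.9, 29.2 and 40.3 in EC. PG/VG was the lowest condition in each batch, with ranges that overlapped control across batches. ATP5MG, which has 8 annotated pseudogenes, had −0.34 ± 0.094 in PG/VG (0.0387). Its EC value was −0.07 (0.673) and the direct difference between EC and PG/VG was 0.27 (0.186). The remaining 14 complex V subunits were below 0 in PG/VG (all genes 47.1%), from −0.33 for ATP5MC1 to −0.09 for ATP5PD.

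NDUFAF3 (ENSG00000178057, chr3:49020459-49023495, plus strand), a complex I assembly factor, stood at 49.997, 49.9 and 36.2 CPM in controls, 37.8, 43.3 and 26.8 in PG/VG, and 42.9, 44.01 and 28.9 in EC. Within each batch the control was highest, and batch 4 was lowest in every condition. The log2 fold change was −0.35 ± 0.081 in PG/VG (edgeR adjusted p = 0.0143) and −0.24 ± 0.080 in EC (0.0475), the latter passing in 1 of 9 fits that left out a library. All 8 assembly factors were below 0 in PG/VG (all genes 47.1%), from −0.35 for NDUFAF3 to 0.00 for NDUFAF6 (−0.0013 before rounding).

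**Figure D2:**
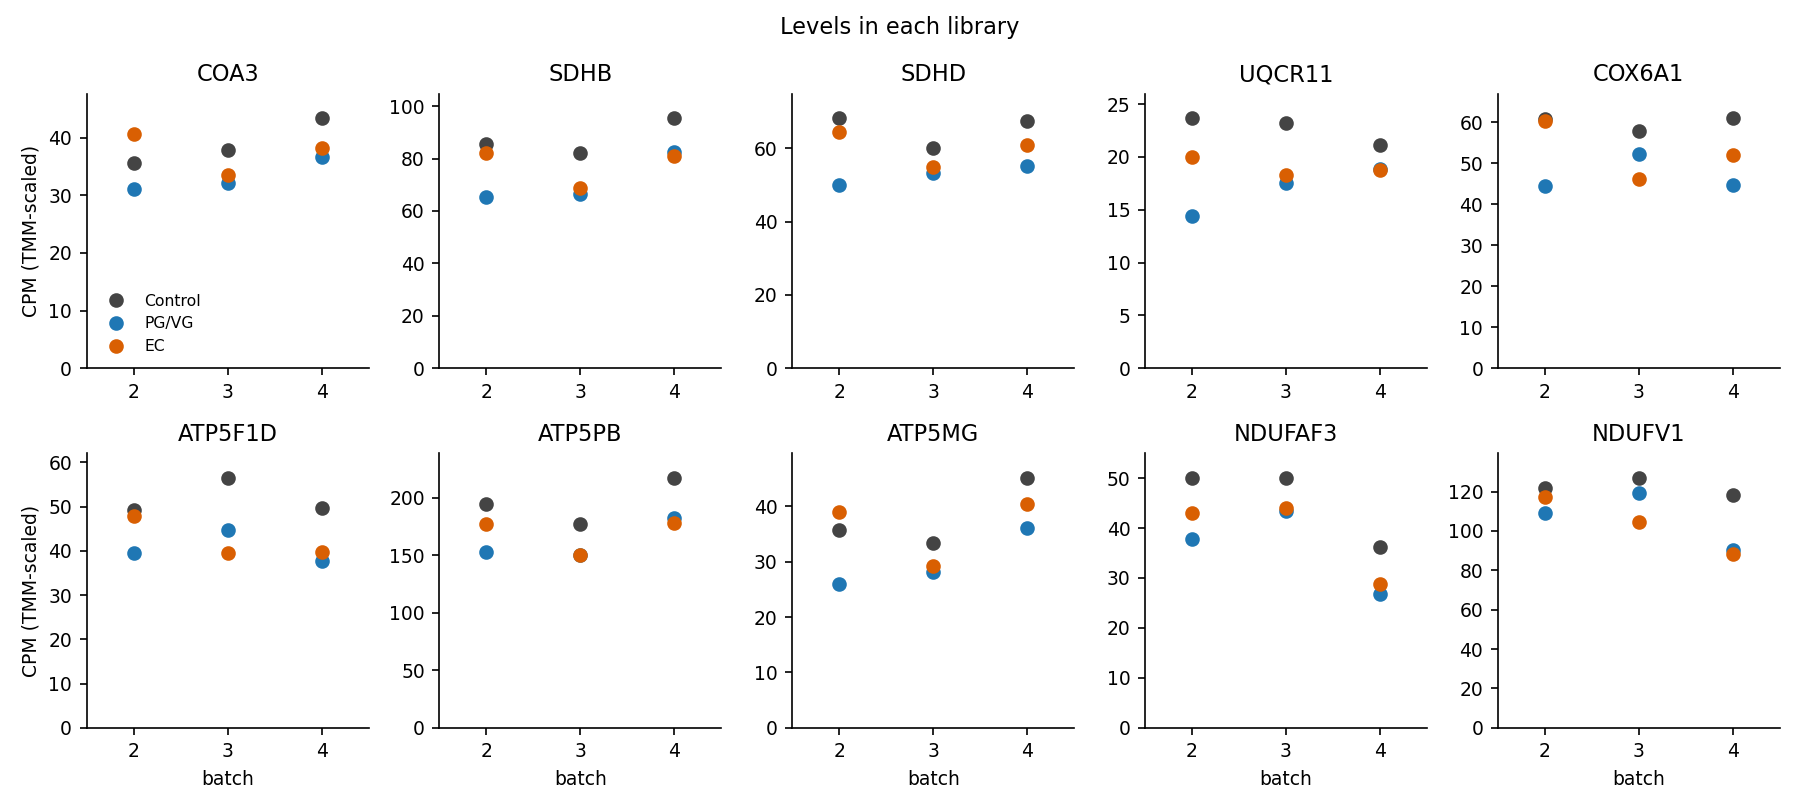
TMM-scaled CPM of 10 members in each of 9 libraries by batch (2, 3 and 4), 1 point per library, axes from 0. The genes are the 8 called lower in PG/VG vs. control, with COA3 and NDUFV1. In every batch the PG/VG point lies below the control point for all 10 genes, which this choice favors. Of all 92 members 51 were lower in all 3 batches (all genes 19.9%). The EC points of COA3 and ATP5MG lie above control in batch 2.

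By complex, the median log2 fold change in PG/VG vs. control was −0.12 for complex I subunits, −0.22 for complex I assembly factors, −0.26 for II, −0.18 for III, −0.19 for IV and −0.20 for V. Over all 92 members it was −0.17, and over all genes tested 0.01. The members below 0 numbered 83 of 92 (90.2%, all genes 47.1%). The 9 at or above 0 were ATP5IF1 and 8 complex I genes (NDUFA1, NDUFA3, NDUFA12, NDUFA4L2, NDUFB1, NDUFB4, NDUFC1 and NDUFS5), none of which was called. Within complex I the medians were −0.02 for the proximal membrane arm (9 genes), −0.12 for the distal arm (11), −0.14 for the NADH-oxidizing module (9) and −0.16 for the ubiquinone-reducing module (7). Their order differed between batches. In batches 2, 3 and 4 the NADH-oxidizing module had 0.03, −0.10 and −0.38 and the ubiquinone-reducing module −0.28, −0.07 and −0.17. Differences between complexes were not tested, since genes are not replicates. The medians of all members were −0.12, −0.09 and −0.27 within batches 2, 3 and 4, and 51 members (55.4%, all genes 19.9%) were lower in all 3 batches.

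**Figure D3:**
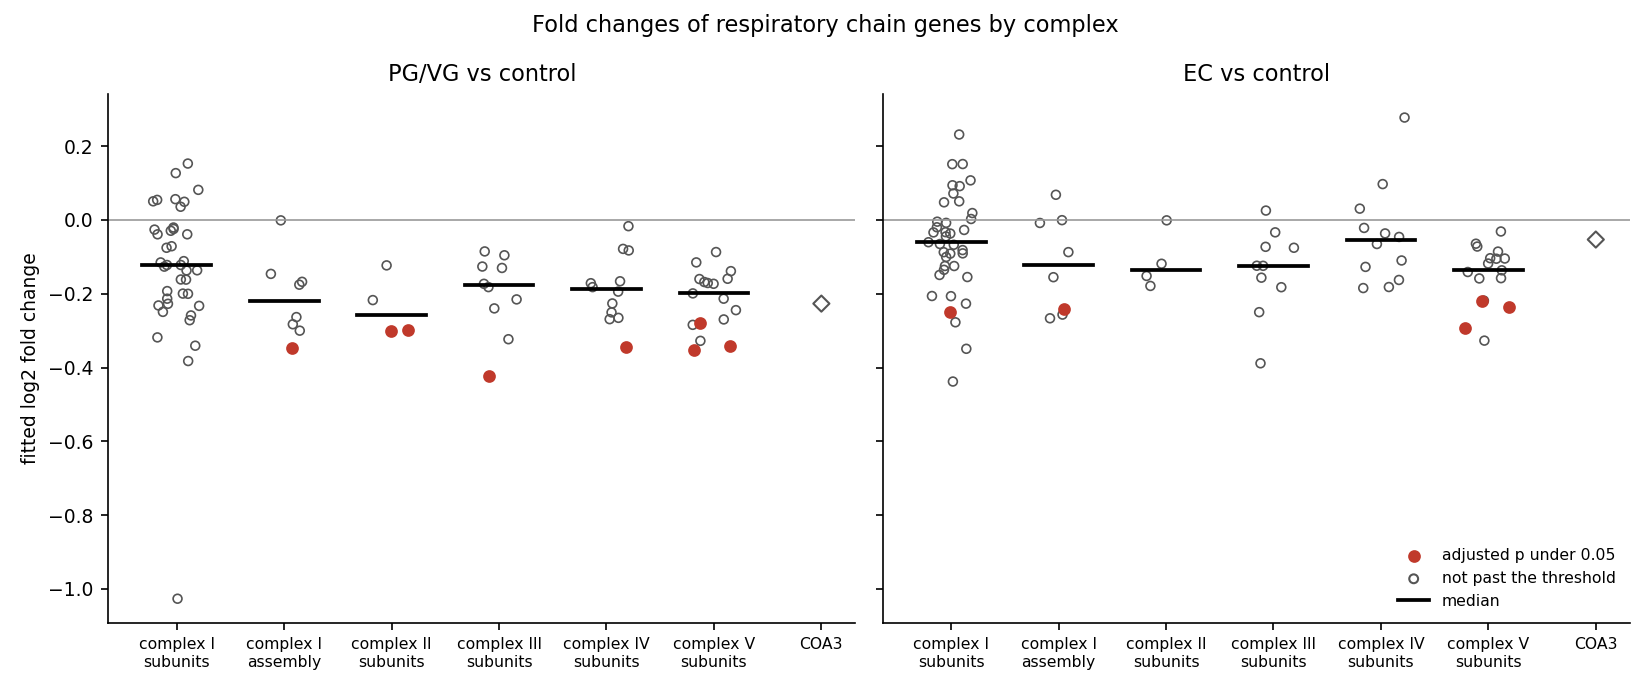
Fitted log2 fold changes of members by complex in PG/VG vs. control (left) and EC vs. control (right), with 1 point per gene, filled where the adjusted p is under 0.05, and a bar at the group median. ATP5IF1 is not drawn. The 8 filled points on the left and 5 on the right all lie below 0, and the lowest open point on the left is NDUFA7 at −1.03, a gene with 2 to 12 counts per library.

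By their means, summed levels of all members were highest in control, then EC, then PG/VG, the order of the median fold changes. This order of the means did not hold in every batch. The members together took 7472 ± 351 CPM (SD, n = 3) in controls, 6676 ± 217 in PG/VG and 6900 ± 461 in EC. Within batches 2, 3 and 4 the sum in PG/VG differed from its control by −8.03%, −5.71% and −17.7%. The sum in EC differed from control by 2.99%, −9.23% and −16.0% in these batches. Complex V sums were 2627 ± 141 CPM in controls, 2297 ± 62.1 in PG/VG and 2327 ± 167 in EC. Every control library lay above every exposed library, but narrowly, with the lowest control at 2526 and the highest EC library at 2519. Sums of the complex I assembly factors were apart as well, with the lowest control at 192 and the highest exposed library, of EC, at 185.

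EC vs. control addresses the flavored liquid with nicotine. It called 5 of 92 members lower and 0 higher in edgeR (5.43%), where all genes tested were called lower in 5.38%, higher in 8.07% and either way in 13.5%, so the share is that of the background. The members were ATP5F1B, ATP5F1D and ATP5PB of complex V, NDUFV1 of complex I and NDUFAF3. An unadjusted p under 0.05 was found for 17 (18.5%), each lower. Of all genes tested 27.4% had such a p in either direction and 1930 of 16030 were lower with it, a smaller share than among the members. No member was called without EC replicate 3, without EC replicate 4 or without batch 4. Of all genes 3.5%, 3.39% and 3.43% were called lower in those 3 fits. The fit without EC replicate 2 called 13 members, each lower (all genes 5.57% lower). Without the batch term the count was 0 (16 of all genes called), as it was with library size as the only scaling (all genes 3.03% lower). Without control replicate 3 the count was 1, lower (all genes 2.89% lower). Without control replicate 4 it was 1, higher (890 of 15924 genes higher).

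ATP5F1B (ENSG00000110955, chr12:56638175-56645984, minus strand) stood at 880, 876 and 867 CPM in controls, 743, 807 and 737 in PG/VG, and 811, 739 and 683 in EC. All exposed libraries were below all controls. The log2 fold change was −0.24 ± 0.069 in EC (edgeR adjusted p = 0.0261) and −0.20 ± 0.069 in PG/VG (0.101). NDUFV1 (ENSG00000167792, chr11:67605653-67612554, plus strand), which carries the flavin that accepts electrons from NADH, was at 122, 127 and 118 CPM in controls, 109, 119 and 90.2 in PG/VG, and 117, 105 and 88.2 in EC. EC lay below all controls with little distance in batch 2. The value of NDUFV1 was −0.25 ± 0.078 in EC (0.0354) and −0.21 ± 0.078 in PG/VG (0.12).

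The members below 0 in EC vs. control numbered 76 of 92 (82.6%, all genes 48.5%), with a median of −0.09 (all genes 0.01). Medians by group were −0.06 for complex I subunits, −0.12 for its assembly factors, −0.14 for II, −0.12 for III, −0.06 for IV and −0.14 for V, and all 17 complex V subunits were below 0. Within batches the picture differed: the median of the members was 0.05 in batch 2, −0.10 in batch 3 and −0.21 in batch 4. The members lower in all 3 batches numbered 28 (30.4%, all genes 21.5%), and 11 of 92 had an EC group entirely below control (all genes 7.42%). Of 6 epithelial markers, KRT8, KRT18 and KRT7 were called lower in EC vs. control. KRT19 (0.18), EPCAM (0.57) and CDH1 (0.36) were above 0 and not called. Nearly all CPM of the list came from KRT8, KRT18 and KRT7. The list summed to 1776 to 2844 CPM in controls, 1721 to 2737 in PG/VG and 1460 to 2287 in EC. Its part in the EC values was not tested.

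**Figure D4:**
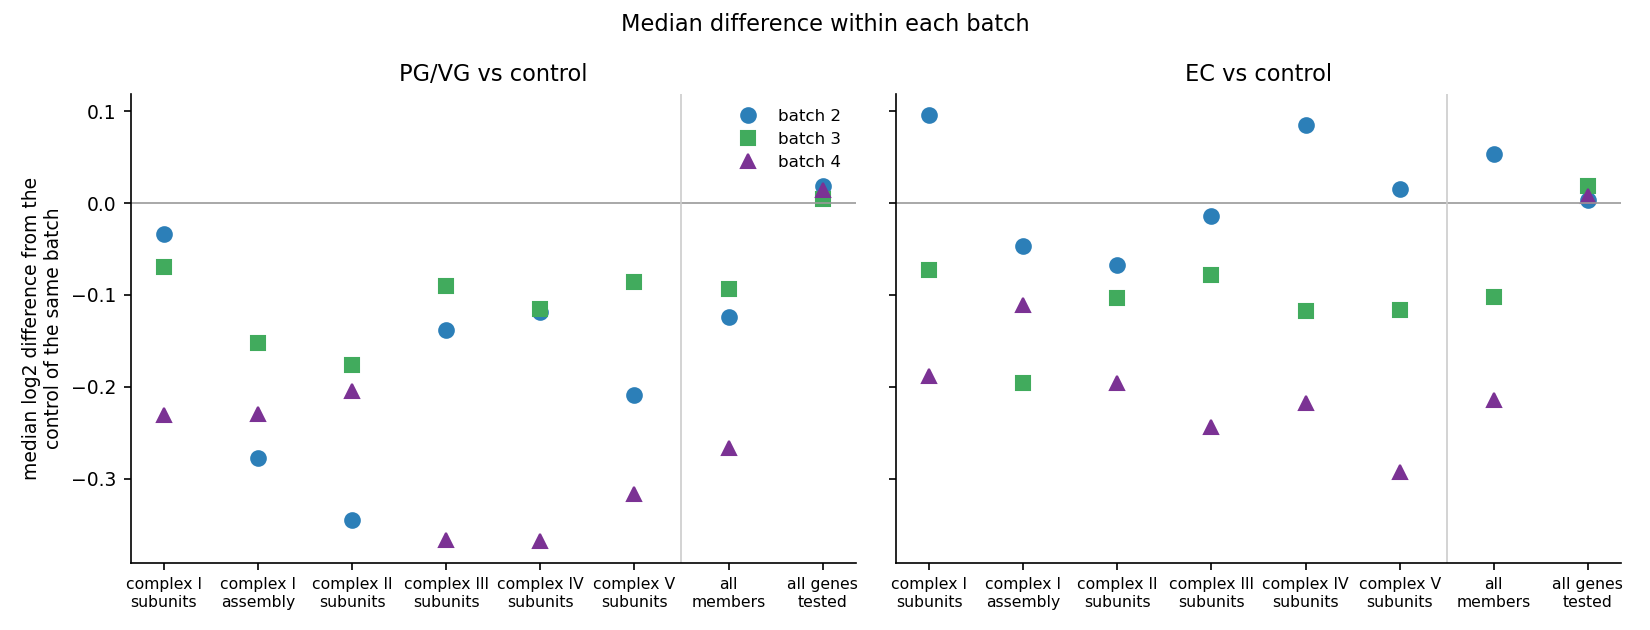
Median log2 difference from the control library of the same batch, by complex, over all members and over all genes tested, for PG/VG (left) and EC (right), with 1 symbol per batch. The PG/VG medians are below 0 in all 3 batches for every complex, whereas the EC medians of complexes I, IV and V are above 0 in batch 2, and all genes tested stay between 0.00 and 0.02.

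EC vs. PG/VG compares the full liquid with its carrier. In edgeR 0 of 92 members were called (all genes 0.855%), and 11 of 92 had an unadjusted p under 0.05 (all genes 12.9%). DESeq2 with the batch in the model called 0 as well (167 of all genes). ComBat-Seq with DESeq2 called 2, both higher in EC (621 of all genes called). The median was 0.07 (all genes 0.00), at 0.18, −0.02 and 0.07 within batches 2, 3 and 4. COX7B, a small complex IV subunit, had the lowest adjusted p at 0.15, with a log2 difference of 0.28 ± 0.089 and higher EC values in each batch. NDUFA4L2 was the one gene lower in EC among the 11, at −0.36 (0.347). Both exposures were compared with the same controls, so their values are not independent of each other.

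The batch contrast set the 3 libraries of batch 4 against those of batches 2 and 3 with the condition in the model. It called 31 of 92 members in edgeR, 16 higher and 15 lower (33.7%). All genes were called either way in 40.6%, higher in 20.1% and lower in 20.5%, and the median of the members was 0.02. NDUFA4L2 (ENSG00000185633, chr12:57234903-57240715, minus strand), a hypoxia-inducible paralog of NDUFA4, had the largest difference. In batch 4 it was at 1.69 CPM in control, 1.84 in PG/VG and 1.24 in EC, while the batch 2 and 3 libraries were at 5.23 to 7.44. No library of batch 4 came near those of the other batches. The log2 difference was −1.95 ± 0.165 (edgeR adjusted p = 2.12e-09), on 25 to 153 counts per library, and the gene passed in all 9 fits that left out a library. NDUFA4 itself differed by −0.06 (0.494).

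Among the other members COX7B was higher in batch 4 by 0.47 ± 0.076 (2.58e-05), with 58.9, 45.3 and 49.0 CPM in control, PG/VG and EC of that batch and 32.1 to 42.9 in the others. The assembly factors NDUFAF3 and NDUFAF2 were lower by 0.55 and 0.45 on the log2 scale (1.49e-06 and 0.000157), while NDUFAF1, NDUFAF5 and NDUFAF8 were higher. NDUFB10 of the distal membrane arm was lower, at −0.41 ± 0.070 (5.46e-05). In complex II 3 of 4 genes, SDHA, SDHB and SDHC, were higher, by 0.21 to 0.28, and SDHD did not pass (0.07, 0.458). ATP5IF1, which blocks ATP hydrolysis by complex V, was lower (−0.21, 0.0235). The count of called members was 20 without PG/VG replicate 4 (4951 of 15848 genes called). The markers differed between batches as well: KRT8, KRT18, KRT7 and CDH1 were lower in batch 4, KDR and CDH5 higher, and COL1A1 lower. Their part in the batch differences was not tested.

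**Figure D5:**
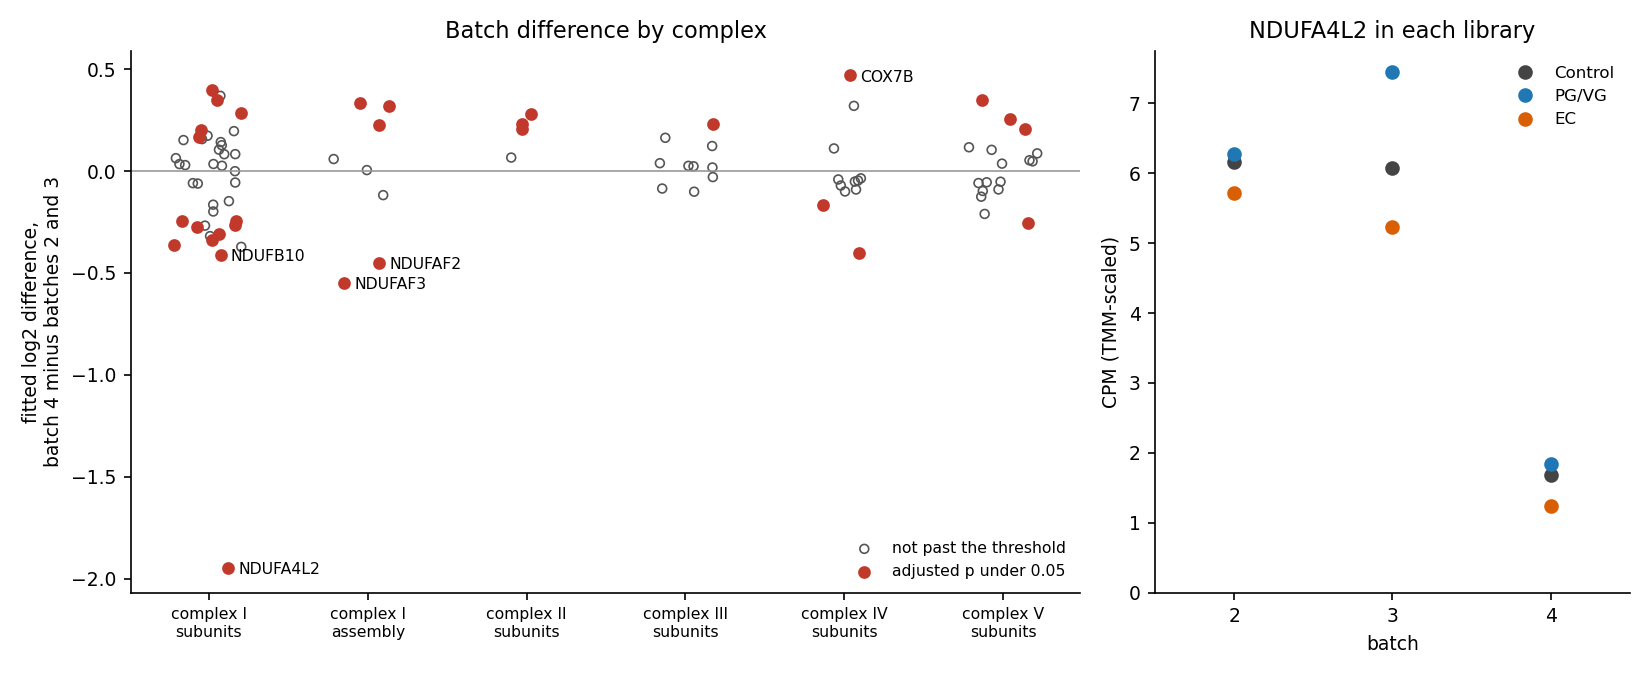
Left, fitted log2 difference of batch 4 from batches 2 and 3 for members by complex, filled where the adjusted p is under 0.05 (COA3 and ATP5IF1 are not drawn). Right, CPM of NDUFA4L2 in each library by batch, with all 3 conditions of batch 4 at 1.24 to 1.84 and the 6 other libraries at 5.23 to 7.44.

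Other genes of the pathway were counted in lists written from general knowledge. Their values come from the fit of all 9 libraries and are not given within batches or without batch 4. Their calls can be read against the shares over all genes, 5.38% lower for EC and 1.9% lower for PG/VG. The 13 mitochondrially encoded subunits had 2 called lower in EC vs. control, MT-CO1 (−0.25, edgeR adjusted p = 0.0393) and MT-CO2 (−0.26, 0.0377), which encode the catalytic core of complex IV. In EC all 13 were below 0 with a median of −0.20. In PG/VG vs. control edgeR called 0, and 10 of 13 were below 0 with a median of −0.11. MT-ND2 had −0.26 in PG/VG (0.0776). These RNAs were captured by polyA selection, and 6 of them were higher in batch 4.

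Among 12 complex I assembly factors outside the naming rule, ACAD9 was called lower in EC (−0.25, edgeR adjusted p = 0.0468, PG/VG −0.16, 0.274) and ECSIT in PG/VG (−0.34, 0.0186, EC −0.24, 0.0623). Of 25 tested for complex IV, edgeR called 3 lower in EC and 0 in PG/VG, while 15 were below 0 in EC (median −0.07) and 20 in PG/VG (median −0.12). SCO1, a copper chaperone, had −0.25 in EC (0.0357) and −0.11 in PG/VG (0.468). COA7 had −0.30 (0.0123) and −0.17 (0.209). LRPPRC, which stabilizes mitochondrial mRNAs, had −0.29 (0.00513) and −0.22 (0.0589). The 4 of complex II, 9 of complex III and 4 of complex V had 0 calls in edgeR in either exposure.

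Among 13 genes of electron carriers, CYCS, cytochrome c, was called lower in PG/VG (−0.25 ± 0.067, edgeR adjusted p = 0.032) and 0 were called in EC. Of 12 regulators of respiratory chain genes, edgeR called 3 lower in EC and 0 in PG/VG, while 8 were below 0 in EC (median −0.09) and 10 in PG/VG (median −0.11). GABPB1, a subunit of the ETS factor GABP, had −0.28 in EC (0.0444) and −0.29 in PG/VG (0.0706). PPRC1, a coactivator, had −0.33 (0.00422) and −0.13 (0.322), and TFB2M, a mitochondrial transcription factor, −0.40 (0.0146) and −0.30 (0.108). In the citric acid cycle list of 13 genes, SUCLG2 and FH were called lower in both, SUCLG2 at −0.40 in PG/VG (0.0024) and −0.37 in EC (0.00163), and FH, fumarate hydratase, at −0.25 (0.0433) and −0.24 (0.0257). No gene of any of these lists was called higher in either exposure.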

How the data were processed

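Polyadenylated RNA of BEAS-2B cells was sequenced by the authors in 9 libraries, 3 per condition. The authors' steps were trimming (fastp), alignment to GRCh38.p12 (STAR) and counting on exons of an Ensembl 111 annotation with featureCounts of Subread 2.0.4, ignoring multi-mapping and multi-overlapping reads. The strand setting is not given in the sources used here. The deposited values are raw counts per gene, and all 9 columns were used. IDs were matched to GENCODE 44 (62666 of 63187), which also gave lengths and overlaps.

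The 16030 genes that reached 10 counts in 3 or more libraries were fitted with edgeR 4.0.16 (R 4.3.3), using TMM scaling and a quasi-likelihood fit of all 9 libraries with condition and batch. P-values were Benjamini-Hochberg adjusted over all genes tested, with a threshold of 0.05. An SE was taken as the absolute log2 fold change over the root of edgeR's F. CPM rest on TMM-scaled library sizes, and within-batch differences are log2(CPM + 0.5). The study states that replicates are biological, but whether they came from separate cultures is not said in the labels, and p-values measure the spread between these libraries. The labels give the number as the batch, so it pairs the libraries. Deviations from the condition mean were correlated between same-numbered libraries (9 pairs). The values were 0.648 to 0.707 in batch 4 and 0.334 to 0.399 in batches 2 and 3. Libraries of batch 2 correlated with those of batch 3 at 0.280 to 0.426, so these values do not separate batches 2 and 3. Pairs of batch 4 with another batch were at −0.539 to −0.419. No 2 replicates agreed within sampling noise.

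Members, COA3 among them, and lists were chosen with earlier results of these data known. Genes named singly are COA3, all members called between conditions, the extremes of level and fold change in each complex, paralogs of 1 subunit, the SDH genes and the 5 largest called batch differences. NDUFB8, NDUFA11, NDUFA3, COX5B and other members named as near the threshold, overlapping or counted in a group were added after values were seen. Alternatives were no batch term, RLE and library size scaling, other count filters, DESeq2 1.42.0, ComBat-Seq (sva 3.50.0) with DESeq2, GC and length trends removed (mgcv 1.9.3), 2 groups alone, a threshold of 0.01, each library left out, and, after seeing the data, thinned counts and batch 4 left out. 1 marker gene of the leukocyte list is not reported here. Steps were tested on simulated counts.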

Additional observations from a re-analysis of the deposited data

How the results depend on the processing

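The medians of the members kept their sign in PG/VG vs. control, EC vs. control and EC vs. PG/VG under every setting tried. Leaving out 1 library gave −0.23 to −0.12, −0.17 to −0.02 and 0.01 to 0.13, and for the batch contrast −0.04 to 0.05, which changes sign. Counts of called members moved more. With no replicate block, that is without the batch pairing, 0 members were called in either exposure (from 8 in PG/VG and 5 in EC), and all genes called fell from 727 to 1 and from 2157 to 16. Library size as the only scaling left 0 in EC and 7 in PG/VG (all genes 2349 and 845). It moved the median of all genes in EC to 0.07. ComBat-Seq with DESeq2 gave 34 in PG/VG, 14 in EC and 2 in EC vs. PG/VG, with 1682, 3099 and 621 of all genes called. Removing GC and length trends gave 19 in PG/VG (all genes 1417) and 16 in EC (all genes 3840), of which 2 were higher. Of all genes called in EC 2630 were then lower, against 863 before. The 2 groups alone gave 24 in PG/VG (all genes 1241). Without batch 4 the counts in PG/VG and EC were 1 and 0 (all genes 324 and 1216). At an adjusted p under 0.01 both were 0 (all genes 226 and 963). Leaving out 1 library gave 0 to 22 in PG/VG (all genes 192 to 1084) and 0 to 13 in EC (1162 to 2172). It gave 0 to 0 in EC vs. PG/VG (all genes 32 to 208) and 20 to 37 in the batch contrast (4951 to 6329). Why the counts moved was not tested. DESeq2 with the batch gave 11 in PG/VG, 5 in EC and 0 in EC vs. PG/VG (all genes 721, 1718 and 167). Thinning to 16168260 counts per library gave 8, 4 and 0 (all genes 677, 1986 and 100). With 3 libraries per group the SE of most members was a sizeable part of the fold change, and NDUFV2 and NDUFA7 had few counts at this depth.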
